A study of Rattus norvegicus with 18 samples.

Results

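The G1 cyclins, their CDKs and the CDK inhibitors were followed by RNA-seq in rat fibroblasts with and without MYC, and in MYC-expressing cells after knockdown of the aryl hydrocarbon receptor (AHR). The genes were taken by symbol: 3 D-type cyclins (Ccnd1, Ccnd2 and Ccnd3), 2 E-type cyclins (Ccne1 and Ccne2), the kinases Cdk4 and Cdk6, and the inhibitors Cdkn1a (p21), Cdkn1b (p27) and Cdkn2c (p18). All 10 listed symbols were among the 13188 genes of the deposited table.

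D-type cyclins bind CDK4 and CDK6 in early G1, and E-type cyclins bind CDK2 later in G1. The active kinases phosphorylate the retinoblastoma protein and its relatives, which releases E2F factors and opens the way into S phase. Inhibitors of the INK4 family, such as p18, bind CDK4 and CDK6 directly, whereas p21 and p27 bind complexes of cyclins with CDKs. MYC is known to promote passage through G1, and CDK4, cyclin D2, p21 and p27 have long been studied downstream of it.

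The cells were HO15.19, a Rat1-derived fibroblast line that lacks functional endogenous myc. Sed denotes this myc−/− line, and SedMYC denotes the same line with stable expression of human MYC, from a retroviral vector according to the study. There were 6 groups of 3 libraries: Sed, SedMYC, Sed siCtrl, SedMYC siCtrl, SedMYC siAHR-2 and SedMYC siAHR-5. The last 4 groups had been transfected with a control siRNA or with either of 2 siRNAs against AHR at 40 nM and were harvested after 48 h; all cells were grown with 10% FBS. The line is 1 cell line, nothing in the labels says that the libraries of a group came from independent derivations, and p-values therefore measure only the spread between these libraries.

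Values are given as deposited, on a log2 scale, so that a difference of 1 is a 2-fold change. The libraries had been put on 2 different scales, in a set of 6 libraries (Sed siCtrl and SedMYC) and a set of 12 (Sed, SedMYC siCtrl, SedMYC siAHR-2 and SedMYC siAHR-5), and groups were compared only within a set. Cells with and without MYC also differ in their transfection label in both sets, and the contributions of MYC and transfection cannot be told apart. Whether these transfection labels are right could not be settled here: the table heads the Sed siCtrl libraries only as controls, and were the labels of Sed and Sed siCtrl exchanged, both comparisons would be matched for transfection. Every value for MYC is given as labelled. In the set of 12, replicate 2 of Sed stood apart: its values differed from the mean of the other Sed libraries by a median of 0.0848, against 0.0313 to 0.0598 in the other 17 libraries of both sets. Levels of 11 fibroblast markers were summed off the log scale, where the most abundant genes weigh most, and the sum was put back on it. This log2 of the sum was 20.8 in Sed siCtrl against 19.9 to 20.0 in SedMYC. It was 21.95 to 22.18 in Sed against 20.2 to 20.3 in SedMYC siCtrl. At a fold change of at least 1.5 and an adjusted p of at most 0.01 by limma, 1 of these markers rose and 5 fell with MYC in the set of 6. By these cutoffs 12.5% of all genes rose there and 14.3% fell. For the set of 12, 0 markers rose and 7 fell, against 10.8% and 14.7% of all genes. Epithelial, endothelial and immune lists summed to 9.72 or less in every library, and some moved with MYC. Immune markers summed to 9.61 to 9.72 in Sed siCtrl against 8.36 to 8.50 in SedMYC, and to 8.47 to 8.56 in Sed against 7.93 to 8.12 in SedMYC siCtrl. Epithelial markers summed to 8.18 to 8.25 against 8.63 to 8.81, and to 7.76 to 7.92 against 8.77 to 9.11. In both sets Krt8 passed the cutoffs upwards (log2FC 1.70 and 1.17) and Cd3e downwards (−2.09 and −1.13). Of the other members of the 2 lists, Ptprc went down as Cd3e did, but by less. Its log2FC was −0.15 in the set of 6 (adjusted p = 0.00156 by limma). In the set of 12 it was at 2.88 in Sed and at 2.84 in SedMYC siCtrl. The remaining members did not follow. In the set of 6 Krt19 was lower with MYC (log2FC −0.27, adjusted p = 0.0107 by limma). Epcam and Cdh1 did not differ detectably there (log2FC −0.01 and 0.0043). The lower immune sums did not hold for every member: Cd68 was higher with MYC in the set of 6 (log2FC 0.35, adjusted p = 0.00186 by limma). In the set of 12 its groups overlapped, at 6.76 to 7.07 in Sed and 7.02 to 7.37 in SedMYC siCtrl. The part of these markers in the values of the G1 genes was not tested. Rat Myc was lower in the cells with human MYC, with log2FC (log2 of the fold change) of −1.26 (set of 6) and −2.68 (set of 12); human MYC was itself not analysed here. Ahr was 2.44-fold lower with siAHR-2 and 2.62-fold lower with siAHR-5 (adjusted p = 2.37e-04 and 2.16e-04 by limma). In bulk RNA, fewer cells of a kind and less RNA per cell cannot be told apart.

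The promoters of Cdk4 and Cdkn1a are shown because, of the genes with a window, these changed by at least 1.5-fold with MYC at an adjusted p of at most 0.01, in the same direction in both sets, Cdk4 up and Cdkn1a down. Each window runs from 250 bases before to 50 bases after the start site in RefSeq (GRCr8), and 6 of the 10 genes had such a window: Ccnd3, Ccne1, Cdk4, Cdkn1a, Cdkn1b and Cdkn2c. Capitals mark matches, on either strand, to the E-box CACGTG bound by MYC with MAX, to the GC box GGGCGG, or to a p53 half-site. The Cdk4 window lies at chr7:64771203-64771502 on the plus strand and the Cdkn1a window at chr20:7150682-7150981 on the plus strand.
Cdk4: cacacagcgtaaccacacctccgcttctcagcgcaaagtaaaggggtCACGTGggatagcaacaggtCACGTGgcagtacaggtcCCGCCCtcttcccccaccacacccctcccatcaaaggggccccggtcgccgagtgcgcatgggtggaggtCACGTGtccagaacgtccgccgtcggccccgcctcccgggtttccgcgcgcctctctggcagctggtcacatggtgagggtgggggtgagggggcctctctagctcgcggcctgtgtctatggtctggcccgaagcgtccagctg
Cdkn1a: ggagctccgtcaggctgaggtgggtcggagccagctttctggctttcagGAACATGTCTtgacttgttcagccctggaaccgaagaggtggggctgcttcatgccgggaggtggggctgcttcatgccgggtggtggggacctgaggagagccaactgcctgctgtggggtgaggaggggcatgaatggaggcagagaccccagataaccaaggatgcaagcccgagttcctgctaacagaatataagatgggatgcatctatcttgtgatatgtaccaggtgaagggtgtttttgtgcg

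The Cdk4 window held 3 matches to CACGTG, whose first bases are at −203, −183 and −95 from the start site, and the other 5 windows held 0. Of 33469 RefSeq promoters of this length, 6.42% held at least 1 such match and 0.0568% held 3 or more. The threshold of 3 is the count of Cdk4 itself, so this last share is descriptive and not a test. The p53 half-site in the Cdkn1a window begins at −201, Cdkn2c also held 1, and 7.98% of promoters held at least 1. A GC box was found in the windows of Ccnd3, Ccne1, Cdk4, Cdkn1b and Cdkn2c, and in 33.1% of promoters. The core sequence bound by AHR, TNGCGTG, and the E2F motif TTTNGCGC were found in 0 of the 6 windows, against 4.89% and 1.28% of promoters. These matches describe letters in 1 window per gene, and other start sites of these genes were not searched. Whether the start site shown is the one used in these cells, or any match is bound in them, was not tested.

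To determine how MYC changed the G1 genes, SedMYC was compared with Sed siCtrl in the set of 6, and SedMYC siCtrl with Sed in the set of 12. In each set 6 of the 10 genes passed the cutoffs, a fold change of at least 1.5 in either direction and an adjusted p of at most 0.01. With MYC, 2 were higher and 4 lower in each set. Of all genes, 26.8% passed in the set of 6 (12.5% higher, 14.3% lower) and 25.5% in the set of 12 (10.8% higher, 14.7% lower). Dropping the fold cutoff and asking for an FDR below 5%, 8 of the 10 genes differed in each set, against 76.2% and 64.7% of all genes. Genes past the cutoffs in both sets were Cdk4, which rose, and Ccnd1, Ccnd2 and Cdkn1a, which fell. The 10 genes had a median log2FC of −0.29 (set of 6) and −0.39 (set of 12), with −0.0038 and −1e-04 as the medians of all genes.

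**Figure D1:**
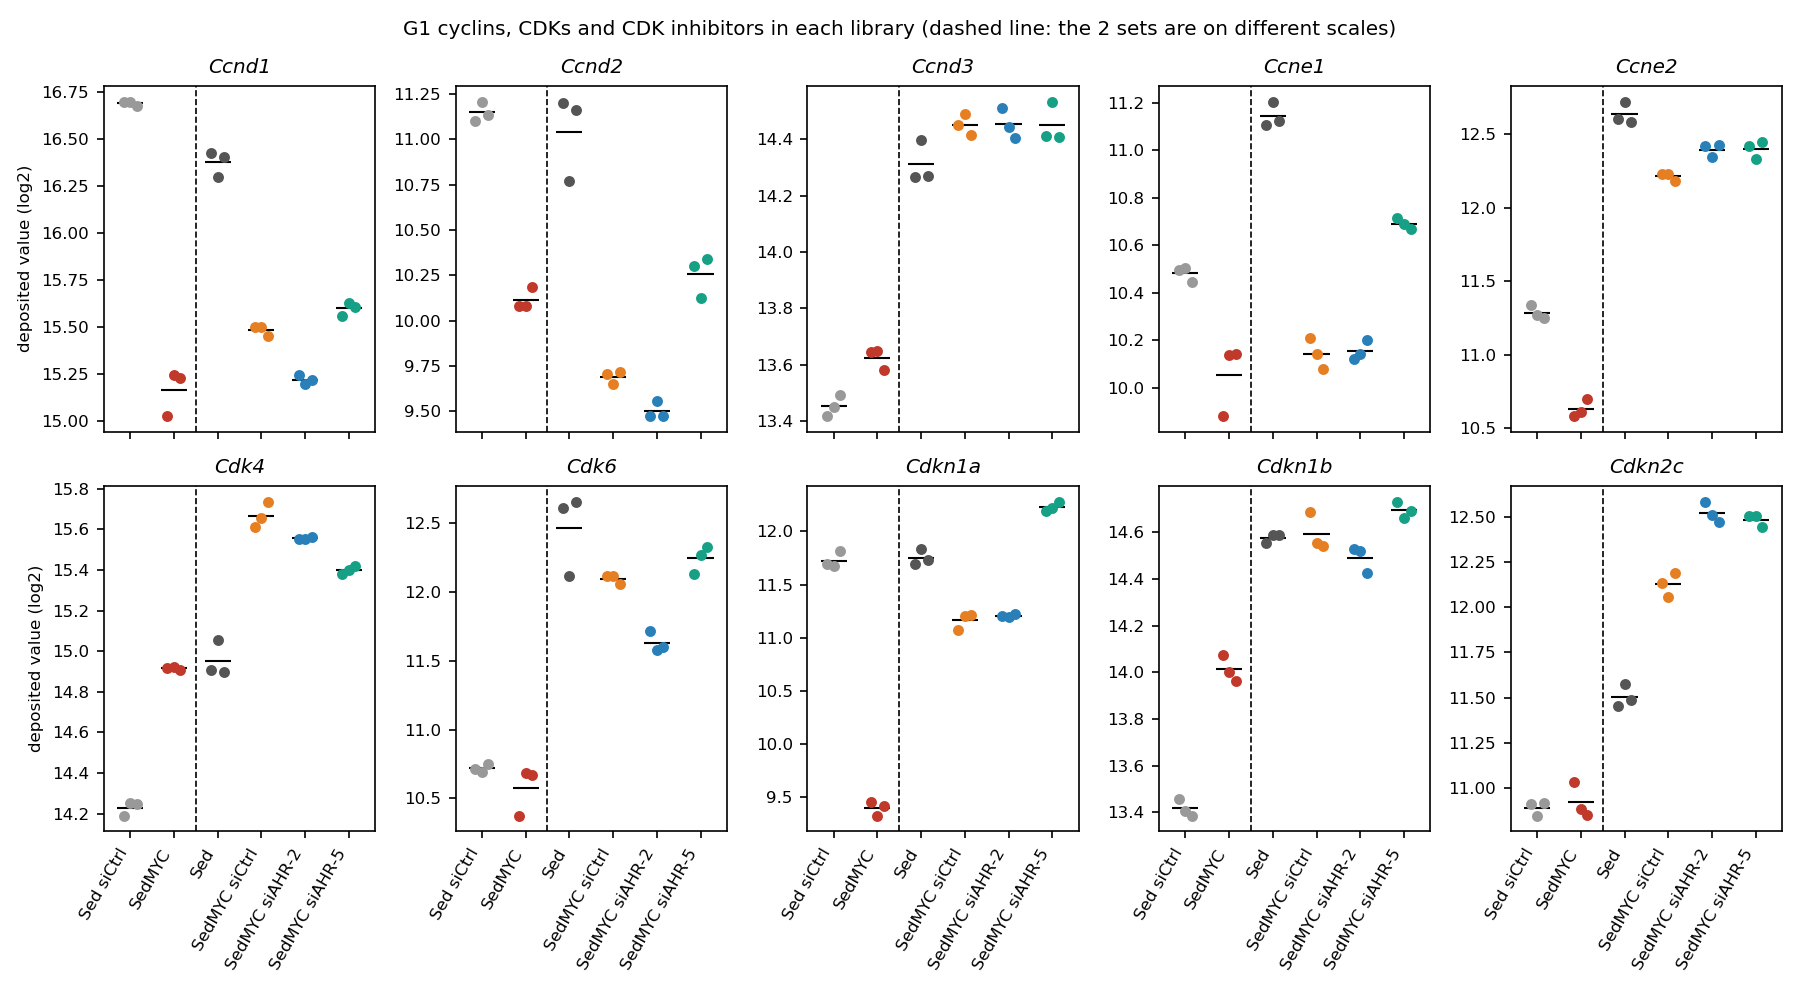
Deposited log2 value (y axis) of each of the 10 genes in each library (points; bars are the means of 3 libraries) by group, with the set of 6 left of the dashed line and the set of 12 right of it; values on either side of it are on different scales. Ccnd1 is high in both groups without MYC, and Cdkn1a is at 9.33 to 9.45 in SedMYC, below Sed siCtrl, and at 12.20 to 12.28 in SedMYC siAHR-5, above every other group of the set of 12.

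Cyclin D1 and cyclin D2, the regulatory partners of CDK4 and CDK6, were both lower with MYC. Ccnd1 was at 16.70, 16.69 and 16.67 in the Sed siCtrl libraries and at 15.03, 15.25 and 15.23 in SedMYC. This is a log2FC of −1.52 (standard error, SE, 0.0499, adjusted p = 2.26e-10 by limma), a 2.87-fold lower level. The set of 12 gave 16.42, 16.30 and 16.41 in Sed and 15.50, 15.50 and 15.45 in SedMYC siCtrl. Here the log2FC was −0.89 (SE 0.0420, adjusted p = 1.09e-05 by limma), a 1.86-fold lower level. In neither set did the groups overlap.

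Ccnd2 was at 11.10, 11.21 and 11.14 in Sed siCtrl and at 10.08, 10.08 and 10.18 in SedMYC, a log2FC of −1.03 (SE 0.0499, adjusted p = 5.45e-09 by limma). The other set had it at 11.20, 10.77 and 11.16 in Sed and at 9.71, 9.65 and 9.72 in SedMYC siCtrl, a log2FC of −1.35 (SE 0.121, adjusted p = 1.56e-04 by limma). Replicate 2 of Sed was the lowest of its group, still above every SedMYC siCtrl library, and without it the log2FC was −1.49. Cyclin D3 did not follow the other D-type cyclins. Ccnd3 ranged from 13.42 to 13.49 in Sed siCtrl and from 13.58 to 13.65 in SedMYC, with a log2FC of 0.17 (adjusted p = 4.99e-04 by limma), and from 14.27 to 14.40 and 14.41 to 14.49 in the set of 12, with a log2FC of 0.14 (adjusted p = 0.0357 by limma). Both differences were below the fold cutoff.

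The E-type cyclins, which activate CDK2 at the end of G1, were lower with MYC in both sets, each past the fold cutoff in 1 of them. Ccne1 was at 10.50, 10.50 and 10.45 in Sed siCtrl and at 9.88, 10.14 and 10.14 in SedMYC. The set of 6 thus gave a log2FC of −0.43 (SE 0.0697, adjusted p = 1.67e-04 by limma), below the fold cutoff. Sed libraries of the set of 12 were at 11.11, 11.20 and 11.12 and SedMYC siCtrl libraries at 10.21, 10.14 and 10.08, a log2FC of −1.002 (SE 0.0534, adjusted p = 1.73e-05 by limma). The level was thus 2.00-fold lower with MYC.

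Ccne2 had the reverse order of sizes. It ranged from 11.25 to 11.34 in Sed siCtrl and from 10.58 to 10.70 in SedMYC, a log2FC of −0.66 (SE 0.0470, adjusted p = 1.61e-07 by limma). Ccne2 ranged, in the set of 12, from 12.58 to 12.72 in Sed and from 12.18 to 12.23 in SedMYC siCtrl, a log2FC of −0.42 (adjusted p = 3.42e-04 by limma), below the fold cutoff.

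Cdk4, the catalytic partner of the D-type cyclins, rose with MYC by close values in both sets. It was at 14.19, 14.25 and 14.25 in Sed siCtrl and at 14.92, 14.92 and 14.91 in SedMYC. The log2FC was 0.69 (SE 0.0281, adjusted p = 1.40e-09 by limma), a 1.61-fold rise. Sed of the set of 12 was at 14.91, 15.06 and 14.90 and SedMYC siCtrl at 15.61, 15.66 and 15.74, a log2FC of 0.71 (SE 0.0568, adjusted p = 9.27e-05 by limma) and a 1.64-fold rise. The difference between the 2 effects was 0.03 (95% confidence interval −0.11 to 0.17). Both rises were larger after quantile normalization, at 0.90 and 0.89.

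Cdk6, the close relative of Cdk4, did not rise with it. The set of 6 gave a log2FC of −0.14 (95% confidence interval −0.31 to 0.02, adjusted p = 0.103 by limma), where replicate 1 of SedMYC was at 10.37 and the other replicates at 10.68 and 10.67. Without that library the log2FC was −0.04 (adjusted p = 0.371 by limma). Cdk6 was, in the set of 12, at 12.61, 12.12 and 12.66 in Sed and at 12.12, 12.12 and 12.06 in SedMYC siCtrl, with a log2FC of −0.37 (SE 0.146, adjusted p = 0.0709 by limma). Replicate 2 of Sed was the low one, and without it the log2FC was −0.54 (adjusted p = 1.00e-04 by limma), still below the fold cutoff.

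Cdkn1a, which encodes p21, had the largest fall of the 10 genes in the set of 6. It was at 11.69, 11.67 and 11.81 in Sed siCtrl and at 9.45, 9.33 and 9.41 in SedMYC. The log2FC was −2.33 (SE 0.0550, adjusted p = 1.79e-11 by limma), a 5.02-fold lower level, and 1.35% of all genes had a lower log2FC. The fall was much smaller in the set of 12, from 11.69, 11.83 and 11.73 in Sed to 11.07, 11.20 and 11.21 in SedMYC siCtrl. Its log2FC of −0.59 (SE 0.0586, adjusted p = 2.48e-04 by limma) was just past the fold cutoff. It fell short of the cutoff, at −0.57 after quantile normalization, −0.55 after median centring, −0.55 without replicate 2 of Sed and −0.54 without replicate 1 of SedMYC siCtrl.

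The other inhibitors each rose in 1 set. Cdkn1b, which encodes p27, ranged from 13.39 to 13.46 in Sed siCtrl and from 13.96 to 14.07 in SedMYC, a log2FC of 0.60 (SE 0.0357, adjusted p = 3.44e-08 by limma). This was just past the fold cutoff, with 0.55 after median centring, 0.56 without replicate 1 of SedMYC and 0.58 without replicate 3 of Sed siCtrl. In the set of 12 the groups overlapped, with 14.55 to 14.59 in Sed and 14.54 to 14.69 in SedMYC siCtrl, and the log2FC was 0.02 (95% confidence interval −0.09 to 0.13, adjusted p = 0.767 by limma). Cdkn2c, which encodes p18, was the opposite case. Its groups overlapped in the set of 6 (log2FC 0.03, 95% confidence interval −0.09 to 0.15), whereas in the set of 12 it went from 11.45, 11.58 and 11.48 in Sed to 12.13, 12.06 and 12.19 in SedMYC siCtrl, a log2FC of 0.62 (SE 0.0523, adjusted p = 1.19e-04 by limma).

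**Figure D2:**
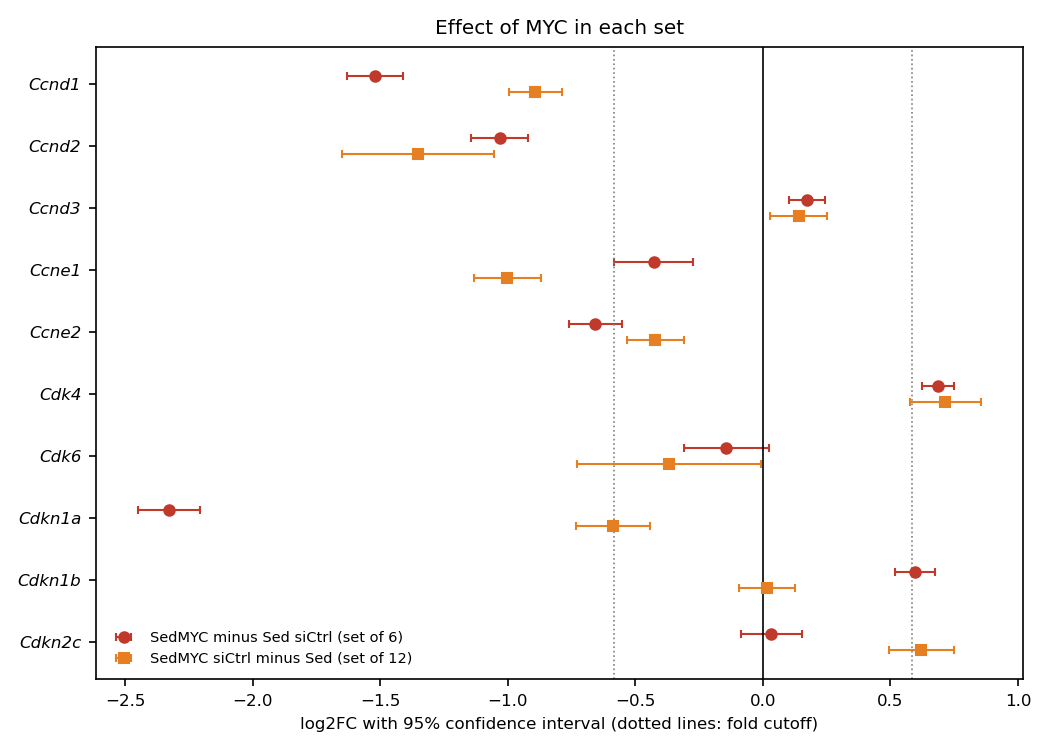
log2FC (x axis, with 95% confidence intervals from limma) of each gene with MYC in the set of 6 (circles) and in the set of 12 (squares); dotted lines mark the 1.5-fold cutoff. The intervals of Cdk4 and Ccnd3 lie over each other, and those of Cdkn1a are the farthest apart (−2.33 and −0.59).

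The difference between the effects in the 2 sets was tested with a limma interaction term over the 4 groups concerned. It passed the cutoffs for 3 of the 10 genes, all upwards, against 16.5% of all genes (6.79% upwards), and 7 of the 10 by FDR alone, against 54.9%. For Cdkn1a the effect was 1.74 higher in the set of 12 (SE 0.0849, adjusted p = 2.81e-10 by limma), that is, a smaller fall. The fall of Ccnd1 was also smaller in the set of 12, by 0.63 (adjusted p = 4.54e-06 by limma), although this was 0.56 without replicate 1 of SedMYC. Cdkn2c differed by 0.59 (adjusted p = 2.13e-05 by limma), just past the fold cutoff, and missed it in 8 of the 12 fits that each left out 1 library. Ccne1 (−0.57) and Cdkn1b (−0.58) were just short of the cutoff in the other direction, and each passed it in 4 of the 12 fits that left out 1 library, reaching −0.66 and −0.62. Over these fits, 2 to 4 of the 10 genes passed.

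AHR was then knocked down in MYC-expressing cells, to ask which of these genes change with its loss. Both siRNAs were compared with the same SedMYC siCtrl libraries, which also serve in the comparison of MYC in the set of 12. Of the 10 genes, 0 passed the limma cutoffs with siAHR-2 (6 had an unadjusted p under 0.05, as did 40.4% of all genes) and 1 passed, higher, with siAHR-5. The rate among all genes was 0.47% with siAHR-2 and 2.32% with siAHR-5 (1.47% higher). By FDR alone (below 5%), 5 of the 10 genes differed with siAHR-2, 2 higher and 3 lower, while 29.3% of all genes differed (13.7% higher, 15.5% lower). For siAHR-5 it was 7 of the 10 genes, 6 higher and 1 lower, while 39.2% of all genes differed (21.1% higher, 18.1% lower).

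Cdkn1a was the gene that passed. It was at 11.07, 11.20 and 11.21 with siCtrl, at 11.20, 11.19 and 11.22 with siAHR-2, and at 12.20, 12.22 and 12.28 with siAHR-5. All 3 siAHR-5 libraries were above every library of the other groups in the set, Sed included (11.69 to 11.83). With siAHR-5 the log2FC was 1.07 (SE 0.0482, adjusted p = 2.26e-04 by limma), a 2.1-fold rise, and 99.9% of all genes had a lower log2FC. With siAHR-2 it was 0.04 (95% confidence interval −0.07 to 0.15, adjusted p = 0.512 by limma). Among cell type markers, the fibroblast list summed to 19.96 to 19.97 with siAHR-5, 19.99 to 20.03 with siAHR-2 and 20.23 to 20.25 with siCtrl. With siAHR-5, 1 of its 11 genes, Thy1, passed the cutoffs (log2FC 0.75). The list went both ways there: by FDR alone 3 genes were higher and 2 lower, with log2FC from −0.48 to 0.75 and a median of 0.02. The endothelial list summed to 7.83 to 8.02, 7.74 to 7.88 and 7.68 to 7.75, and 2 of its 3 genes were higher with siAHR-5 by FDR alone. Of all genes, 1.47% passed the cutoffs upwards with siAHR-5, and by FDR alone 21.1% were higher and 18.1% lower. The part of these markers in the level of Cdkn1a was not tested. Compared directly, siAHR-5 was 1.03 above siAHR-2 for Cdkn1a (SE 0.0293, adjusted p = 5.44e-05 by limma).

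The D-type cyclins Ccnd1 and Ccnd2 lay on opposite sides of the control with the 2 siRNAs. Ccnd1 was at 15.25, 15.20 and 15.22 with siAHR-2 and at 15.56, 15.63 and 15.61 with siAHR-5, around a control range of 15.45 to 15.50. Its log2FC was −0.26 with siAHR-2 (adjusted p = 0.00108 by limma) and 0.12 with siAHR-5 (adjusted p = 0.0175 by limma). Ccnd2 was at 9.48, 9.56 and 9.48 with siAHR-2 and at 10.30, 10.12 and 10.34 with siAHR-5, around 9.65 to 9.72 in the control. Its log2FC was −0.19 (adjusted p = 0.0236 by limma) and 0.56 (adjusted p = 0.00201 by limma). All 4 values were below the fold cutoff, and that of Ccnd2 with siAHR-5 was 0.63, past it, without replicate 2 of SedMYC siAHR-5. Ccnd3 overlapped the control with both siRNAs, with log2FC of 0.0012 (95% confidence interval −0.08 to 0.09) and −0.0016 (−0.11 to 0.10).

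Cdk6 also split between the siRNAs. It was at 11.72, 11.58 and 11.60 with siAHR-2, at 12.12, 12.12 and 12.06 with siCtrl and at 12.13, 12.27 and 12.33 with siAHR-5. The log2FC was −0.47 with siAHR-2 (SE 0.0436, adjusted p = 0.00174 by limma), which is lower than for all but 0.743% of genes though short of the fold cutoff, and 0.15 with siAHR-5 (adjusted p = 0.0899 by limma). Ccne1 did not differ detectably with siAHR-2 (log2FC 0.01, 95% confidence interval −0.10 to 0.13), and with siAHR-5 it was at 10.71, 10.69 and 10.67 against 10.21, 10.14 and 10.08 in the control. That log2FC was 0.55 (SE 0.0441, adjusted p = 6.95e-04 by limma), below the fold cutoff.

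Cdkn2c and Ccne2 had close values with both siRNAs. Cdkn2c was at 12.58, 12.51 and 12.47 with siAHR-2 and at 12.50, 12.50 and 12.44 with siAHR-5, above 12.13, 12.06 and 12.19 in the shared control. Its log2FC was 0.39 (adjusted p = 0.00322 by limma) and 0.36 (adjusted p = 0.00186 by limma), and the direct difference was −0.04 (95% confidence interval −0.13 to 0.05). Ccne2 had log2FC of 0.18 and 0.19 (adjusted p = 0.00939 and 0.0120 by limma), with a direct difference of 0.0042 (95% confidence interval −0.09 to 0.10). Cdk4 was at 15.55 to 15.56 with siAHR-2 and 15.38 to 15.42 with siAHR-5, below 15.61 to 15.74 in the control, with log2FC of −0.11 (adjusted p = 0.0562 by limma) and −0.27 (adjusted p = 0.00295 by limma). Cdkn1b had log2FC of −0.10 and 0.10 (adjusted p = 0.187 and 0.134 by limma). Directly between the siRNAs, Cdk4 was lower with siAHR-5 (log2FC −0.16) and Cdkn1b higher (0.20) (adjusted p = 9.53e-04 and 0.00662 by limma). All of these were below the fold cutoff.

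**Figure D3:**
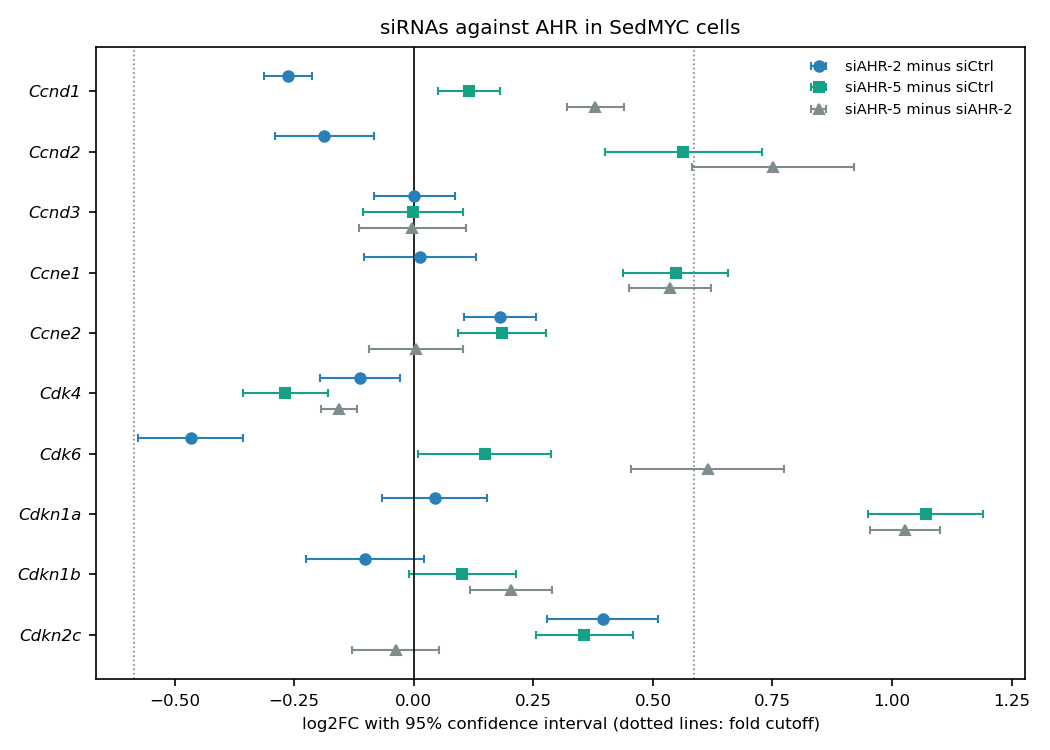
log2FC (x axis, with 95% confidence intervals from limma) of each gene in SedMYC cells for siAHR-2 (circles) and siAHR-5 (squares) against the same siCtrl libraries, and for siAHR-5 against siAHR-2 (triangles); dotted lines mark the 1.5-fold cutoff. Cdkn1a with siAHR-5 (1.07) lies beyond the cutoff, while Cdkn2c and Ccne2 have close values with both siRNAs.

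Directly against siAHR-2, siAHR-5 gave 3 of the 10 genes past the cutoffs, all higher: Cdkn1a, Ccnd2 (log2FC 0.75, SE 0.0677, adjusted p = 7.87e-04 by limma) and Cdk6 (0.61, SE 0.0642, adjusted p = 0.00126 by limma). The background was 2.18% of all genes, and 1.33% in that direction; by FDR alone 7 of the 10 genes differed, against 39.1% of all genes. Cdk6 dropped to 0.57 without replicate 3 of SedMYC siAHR-5, and its adjusted p was 0.0123 with the replicate number as a block. Ahr itself differed by −0.11 between the siRNAs (95% confidence interval −0.25 to 0.04, adjusted p = 0.211 by limma). Of the 11 fibroblast markers, 2 passed the cutoffs upwards in this comparison (highest log2FC 0.67), beside 1.33% of all genes. By FDR alone 3 of these markers were higher and 2 lower. The part of these markers in the differences of the G1 genes was not tested.

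Other genes around the G1 machinery were read from lists of 57 genes, of which 48 were in the table. With MYC, 10 of the 48 passed in the set of 6, 5 higher and 5 lower, and 15 passed in the set of 12, 12 higher and 3 lower. These are 20.8% and 31.2% of the list, against 26.8% and 25.5% of all genes, so that the share in the set of 6 lay below the background. Their median log2FC was 0.01 and 0.36. CDK2, the kinase that E-type cyclins activate, rose with MYC, with log2FC for Cdk2 of 0.94 and 1.11 (adjusted p = 7.27e-10 and 5.67e-07 by limma). Cdk2 was the 1 gene of the 5 CDK2 partners and CDK activators that passed in each set. Of the other genes with a Cdkn symbol in the table, Cdkn3 had log2FC of −0.17 and 0.40 (adjusted p = 0.00666 and 5.48e-04 by limma), below the fold cutoff. Cdkn1c was at 1.21 to 1.29 in the set of 6 and at 0.938 to 0.982 in the set of 12, with almost the same low value in every library, so nothing is read from its test. Skp2, which marks p27 for degradation, rose by 1.30 and 1.82 (adjusted p = 3.84e-10 and 2.74e-07 by limma). Fbxo4, part of a ligase described for cyclin D1, fell, with log2FC of −0.79 and −0.91 (adjusted p = 1.54e-06 and 2.42e-04 by limma). Skp2 and Fbxo4 were the 2 of 9 ubiquitin ligase parts that passed in the set of 6, and 2 of the 3 in the other set.

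Among 10 pocket protein, E2F and DP genes, 3 passed in the set of 6 and 2 in the other set, beside 26.8% and 25.5% of all genes. E2f4, an E2F that works mainly in repressor complexes, was higher in both, by 0.76 and 0.64 (adjusted p = 1.52e-08 and 1.72e-05 by limma). Of 10 transcriptional regulators of CDK inhibitors, 4 passed in the set of 6 and 5 in the other set, beside the same shares of all genes. Klf4, an activator of Cdkn1a, fell, with log2FC of −1.64 and −1.51 (adjusted p = 3.64e-11 and 1.84e-06 by limma), and Egr1 rose by 1.38 and 2.25 (adjusted p = 3.14e-07 and 1.39e-05 by limma). Mdm2, a p53 target as Cdkn1a is, went in opposite directions and was picked out after its values were seen. It had log2FC of −0.98 and 0.99, a difference of 1.96 (adjusted p = 1.78e-12 by limma).

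For 12 proliferation genes, the difference between the effects of MYC in the sets passed the cutoffs in 4, all upwards, against 16.5% of all genes (6.79% upwards). By FDR alone 9 were higher and 1 lower, against 54.9% of all genes in either direction. In the set of 6, 0 passed the limma cutoffs, against 26.8% of all genes, 10 had an unadjusted p under 0.05 (77.5% of all genes had), and their median log2FC was −0.09. By FDR alone 3 were higher and 7 lower with MYC there, against 76.2% of all genes in either direction. In the set of 12, 4 passed, all higher with MYC, against 25.5% of all genes (10.8% higher), and the median was 0.43. By FDR alone 9 were higher and 1 lower in that set, against 64.7% of all genes in either direction. The part of proliferation in the values of the G1 genes was not tested.

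With siAHR-2, 0 of the 48 genes passed the limma cutoffs (25 had an unadjusted p under 0.05, beside 40.4% of all genes), and 2 passed with siAHR-5, both lower. All genes passed at 0.47% with siAHR-2 and 2.32% with siAHR-5, where the list stood at 4.17%. Pcna, the sliding clamp of DNA replication to which p21 binds, fell by 0.84 (adjusted p = 1.99e-04 by limma), against a log2FC of 0.16 with siAHR-2 (adjusted p = 0.00431 by limma). Bmi1, a Polycomb repressor of CDK inhibitor genes, fell by 0.78 (adjusted p = 2.15e-04 by limma), against −0.04 with siAHR-2 (adjusted p = 0.472 by limma). Of the 12 proliferation genes, 1 was higher and 7 were lower with siAHR-5 by FDR alone, with a median log2FC of −0.18. Of all genes, 21.1% were higher and 18.1% lower. With siAHR-2, 3 of the 12 were higher and 2 lower, with a median of 0.02, beside 13.7% of all genes higher and 15.5% lower. With siAHR-5 against siAHR-2 directly, 1 was higher and 9 were lower (median −0.16), beside 39.1% of all genes in either direction. The part of proliferation in the level of Cdkn1a was not tested. Pcna and Bmi1 also differed directly between the siRNAs, by −0.999 and −0.75 (adjusted p = 5.44e-05 and 6.52e-05 by limma). In that comparison 3 of the 48 genes passed the cutoffs, all lower (6.25%, against 2.18% of all genes). Beside Pcna and Bmi1 this was 1 of the pocket protein, E2F and DP genes (log2FC −0.60). Mdm2 had a log2FC of 0.25 with siAHR-5 (adjusted p = 0.00125 by limma) and −0.15 with siAHR-2 (adjusted p = 0.00803 by limma), both below the fold cutoff.

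**Figure D4:**
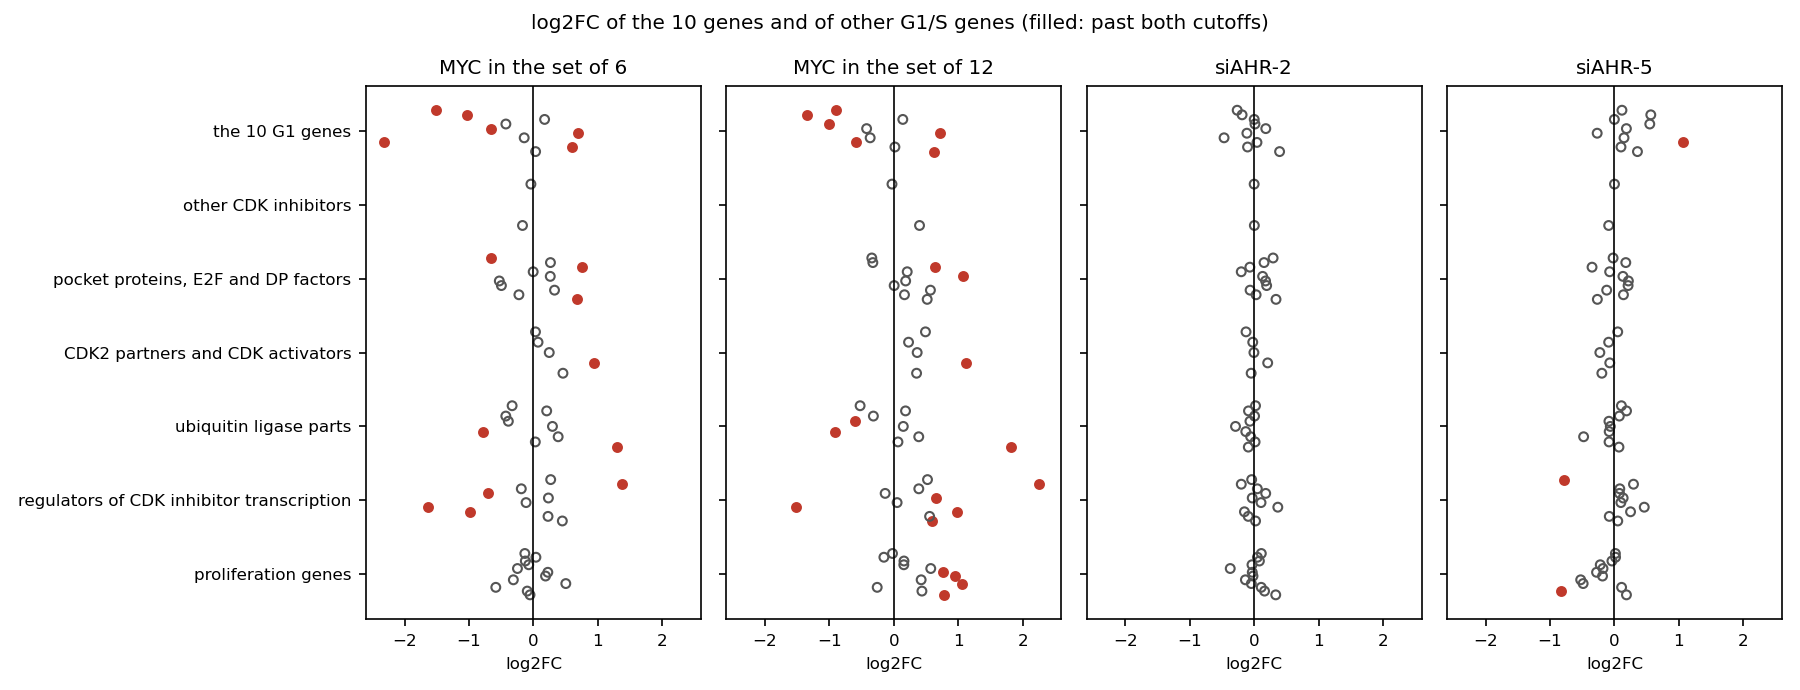
log2FC (x axis) of the 10 G1 genes and of 48 further genes in 6 lists (rows; each point is 1 gene) in the comparisons of MYC and of each siRNA; filled points passed both cutoffs. Points spread widely in both comparisons of MYC, while with siAHR-2 there are 0 filled points and with siAHR-5 these are Cdkn1a, Bmi1 and Pcna.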

How the data were processed

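Cells were sent to a company for RNA extraction, poly-A enrichment and sequencing; per the labels and the study's methods, reads were aligned to rn6 with HISAT2 2.1.0, genes with fewer than 10 total reads were removed and counts were normalized with DESeq2. The deposited values are on a log2 scale. Taken off that scale, library totals were 86.3 to 161 times that of a CPM library, so the exact transformation and the depth of the libraries are unknown and no counting interval is given. The submitters' table of 13188 genes was used as deposited. Groups came from the labels, with 3 libraries each.

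Groups were compared within a set with limma 3.58.1 (R 4.3.3; lmFit, eBayes with trend), with Benjamini-Hochberg adjustment over all 13188 genes. A gene passed at a fold change of at least 1.5 either way and an adjusted p of at most 0.01; an FDR below 0.05 with no fold cutoff was an alternative. All 10 genes are named, and of the 6 other lists of G1/S and proliferation genes up to 4 each past the cutoffs in the same direction in both comparisons of MYC, and all past them with an siRNA. Outside this rule, Cdkn1c, Cdkn3, Mdm2 and the marker genes Krt8, Krt19, Epcam, Cdh1, Cd3e, Ptprc, Cd68 and Thy1 were chosen after their values were seen. The genes and lists were chosen with earlier results of these data known. Tested on simulated data with 200 genes changed by 1 on the log2 scale, the fit called 188 for MYC in the set of 12. The most variable genes were not among the changed ones. Changes close to the fold cutoff were not simulated, so this does not speak to calls near it. Also tried were quantile normalization, median centring, no trend, a minimum mean log2 value of 1, the replicate number as a block, a pseudocount of 1, all 12 libraries in one fit and leaving out each library. Cdkn2a, Cdkn2b and Cdkn2d were not analysed here.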

Additional observations from a re-analysis of the deposited data

Results flagged for a closer look

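The effect of MYC differed between the sets past both cutoffs for 3 of the 10 genes, against 16.5% of all genes, by a limma test of the difference itself. Without the fold cutoff 7 of the 10 differed (54.9% of all genes), among them Cdkn1b (−0.58, adjusted p = 1.53e-06) and Ccne1 (−0.57, adjusted p = 1.49e-04). For Cdkn1a the effect in the set of 12 minus that in the set of 6 was 1.7382, for Ccnd1 it was 0.6274 and for Cdkn2c it was 0.5885. Both sets compare cells with MYC to cells without it, and the transfection label runs in opposite directions in them (siCtrl in the cells without MYC in the set of 6, and in the cells with MYC in the set of 12). The sets also differ in scale, and set and transfection cannot be told apart. Whether the transfection labels of Sed and Sed siCtrl are right could not be settled here; exchanged, both comparisons would be matched for transfection and the sets would differ in it.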

How the results depend on the processing

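Of 820 refits of the 60 log2FC, 766 kept direction and side of the cutoffs, 18 lost the call, 10 gained one and 26 changed sign. With an FDR below 0.05 and no fold cutoff the counts went from 0 to 5 with siAHR-2, 1 to 7 with siAHR-5, 3 to 7 between the siRNAs and 3 to 7 for the difference between MYC effects. Leaving out 1 library gave 1 to 2 with siAHR-5. The replicate numbers do not pair the libraries (mean correlations of same-numbered libraries −0.0287 to 0.0974; 4 of 6 libraries at most correlated best with their own number); with the replicate block the counts were 6, 6, 0, 1, 2 and 3, the 2 being siAHR-5 against siAHR-2, where Cdk6 (log2FC 0.61) was lost. Sign changed for Cdkn2c in the set of 6 (quantile −0.0131, median centring −0.0098; leave-one-out −0.0227 to 0.0689), Cdkn1b in the set of 12 (leave-one-out −0.0288 to 0.0427), and with siAHR-2 for Ccnd3 (median centring −0.0298; leave-one-out −0.0269 to 0.0250), Ccne1 (quantile −0.0254, median centring −0.0184; leave-one-out −0.0201 to 0.0463) and Cdkn1a (leave-one-out −0.0007 to 0.0688). It also changed for Ccnd3 with siAHR-5 (quantile 0.0288; leave-one-out −0.0430 to 0.0199), between the siRNAs for Ccnd3 (leave-one-out −0.0442 to 0.0253) and Ccne2 (median centring −0.0245; leave-one-out −0.0211 to 0.0371), and in the difference between MYC effects for Ccnd3 (median centring 0.0524; leave-one-out −0.0554 to 0.01) and Cdk4 (leave-one-out −0.0051 to 0.0809). The cause was not tested. Genes called higher and lower were 194 and 112 with siAHR-5, but 127 and 126 after quantile normalization and 140 and 165 after median centring. With median centring they went from 21 and 41 to 15 and 53 with siAHR-2, and from 896 and 1275 to 1148 and 1036 for the difference. With MYC, more genes were called lower than higher as reported (set of 6, 1653 higher, 1884 lower; set of 12, 1425 higher, 1936 lower) and more higher after quantile normalization (1799 and 1684; 1796 and 1660), while median centring gave 1492 and 2046, and 1603 and 1791. The unknown depth limits what can be said of low values.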
